A study of Mus musculus with 10 samples.

Results

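Bdnf encodes brain-derived neurotrophic factor, and H3K27ac at its promoters was examined here in the cerebral cortex of mice with a Dnmt3a knockout allele. The rows of the H3K27ac table that overlap chr2:109490000-109590000 (mm9) were taken, a window around the gene, which spans about 109515000 to 109567000. Of 50898 regions in the table, 2 fall in the window, and both carry the authors' class prom, read here as promoter. They are called Bdnf region 1 (chr2:109513573-109519949) and Bdnf region 2 (chr2:109531516-109535405).

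The study compared C57BL/6J mice heterozygous for a Dnmt3a knockout (Het, n = 5) with wild-type littermates (WT, n = 5), all aged 8 weeks. Dnmt3a encodes an enzyme that adds methyl groups to unmethylated DNA; the sources used here do not say how the knockout allele was made. The animals formed 5 litters of 1 Het and 1 WT mouse each: litters 1, 3 and 5 are male, and litters 2 and 4 female. In 4 pairs the sample titles share a litter number; the titles of the fifth pair carry different numbers, and it is joined through the table's column names and the labels' statement of 5 littermate pairs. The Het animal of litter 5 is described with the abbreviation cKO but is heterozygous by its genotype label, which was followed. H3K27ac is an acetylated form of histone H3 found at promoters and enhancers in use. It was profiled with ChIP-seq on whole dissected cortex, so fewer cells of a type and less acetylation per cell cannot be told apart. The values are pseudo-counts, read counts per region that the authors adjusted to a common library size. Reads in regions, recovered from them, ranged from 2771534 in WT litter 5 to 8453140 in Het litter 2.

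BDNF is a secreted growth factor that signals through the receptor TrkB and takes part in neuronal survival, dendrite growth and synaptic plasticity. The rodent gene has several short first exons, each with a promoter of its own, that are spliced to a shared exon holding the whole coding sequence. These promoters are used to different extents in different brain regions, and some of them respond to neuronal activity through calcium-dependent factors such as CREB. DNA methylation has long been studied at the gene, which makes it a common example in work on neuronal methylation.

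RefSeq (GRCm38.p6) lists 12 transcripts of Bdnf with 7 separate starts, on the plus strand of chromosome 2. Counted from the first, the starts lie at 0, 2332, 17736, 18327, 19709, 34683 and 48221 bp, so that starts 1 and 2 form a first group, starts 3 to 5 a second, and starts 6 and 7 stand alone. The 250 bases before 3 of these starts are shown. Starts 1 and 3 are shown because they open the first and the second group and because they alone hold the letters TCACGT, part of a motif like the cyclic AMP response element, which are in capitals. Start 6 is shown because it has the fewest CpG sites, the main substrate of DNA methyltransferases.
Bdnf start 1, chr2:109674450-109674699, plus strand: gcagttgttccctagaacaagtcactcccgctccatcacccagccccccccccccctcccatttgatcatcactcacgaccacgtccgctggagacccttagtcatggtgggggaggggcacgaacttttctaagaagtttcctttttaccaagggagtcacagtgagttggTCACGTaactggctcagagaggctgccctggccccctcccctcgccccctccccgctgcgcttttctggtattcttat
Bdnf start 3, chr2:109692186-109692435, plus strand: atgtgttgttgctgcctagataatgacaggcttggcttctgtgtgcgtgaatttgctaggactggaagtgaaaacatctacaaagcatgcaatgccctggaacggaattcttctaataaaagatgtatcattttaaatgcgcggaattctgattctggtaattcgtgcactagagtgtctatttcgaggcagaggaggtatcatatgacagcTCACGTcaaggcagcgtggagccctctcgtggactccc
Bdnf start 6, chr2:109709133-109709382, plus strand: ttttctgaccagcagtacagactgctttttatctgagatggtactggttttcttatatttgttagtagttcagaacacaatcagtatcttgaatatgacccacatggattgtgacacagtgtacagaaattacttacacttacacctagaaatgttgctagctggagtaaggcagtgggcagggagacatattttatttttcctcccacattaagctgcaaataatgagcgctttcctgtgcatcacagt

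In start 1 the letters TCACGT begin 78 bases before the start of the RNA, and in start 3 they begin 38 bases before it. The motif, searched on both strands and chosen after the Bdnf sequences were seen, occurs in 5.88% of the 32851 RefSeq windows of the same length. In start 3 it overlaps CGTCA, the core of a cyclic AMP response element, which begins 35 bases before the start, is present in no other of the 7 Bdnf windows and occurs in 17.8% of all windows. The full palindrome TGACGTCA (1.55% of all windows) and the E-box CACGTG (6.02%) are not in these 7 windows. CpG sites number 9 and 4 before starts 1 and 2, then 9, 8 and 13 before starts 3 to 5, then 1 and 7 before starts 6 and 7, against a median of 6 over all windows. Dnmt3a also methylates CA in neurons, and CA steps on either strand number 43 before start 6, the highest of the 7, against 22 before start 2, the lowest, and a median of 34 over all windows.

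Both regions lie in the 5′ part of the gene. Region 1 is 6377 bp wide and runs from -1427 to 4949 bp relative to the approximate mm9 gene start. Region 2 is 3890 bp wide and runs from 16516 to 20405 bp. The 2 regions are 11566 bp apart. The positions of the RefSeq starts and of the regions come from different genome builds and a rounded gene start, so no start was assigned to a region, and the 2 sets of distances are only given side by side in the map of the gene. No row used here lies between the end of region 2 and the end of the gene. Region numbers of the class enh run from 25103 at chr2:109457882-109460878, upstream of the window, to 25105 at chr2:109782454-109784458, downstream of it; the 1 number between them was not analysed here, and its position is not known.

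**Figure D1:**
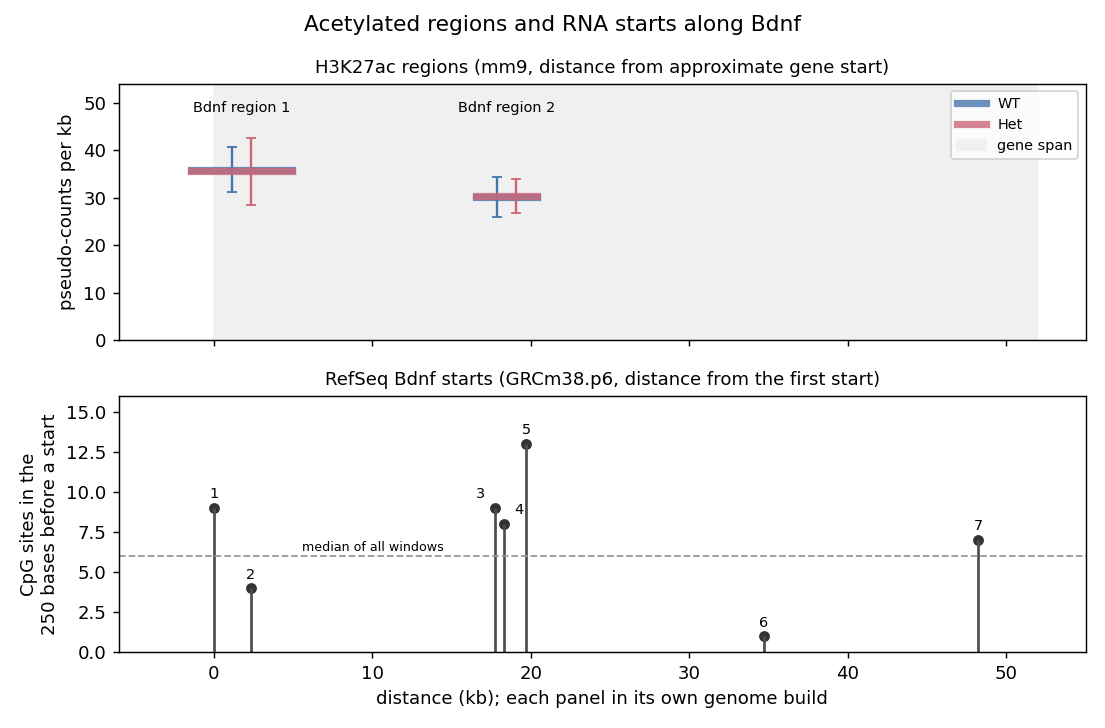
Top, H3K27ac as pseudo-counts per kb (bars, mean of 5 WT or 5 Het animals; vertical lines, SD) at the 2 Bdnf regions against the distance from the approximate mm9 gene start in kb, with the gene span shaded. Bottom, number of CpG sites in the 250 bases before each of the 7 RefSeq starts against the distance from the first start in GRCm38.p6. WT and Het bars lie nearly on top of each other in both regions, and starts 1 and 2 and starts 3 to 5 form 2 groups while start 6 has 1 CpG site.

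Region 1 held more pseudo-counts than region 2 in each of the 10 libraries. Its mean over them was 227.7 pseudo-counts, above 77.9% of the 16529 promoter regions of the table, whose median was 111.1. Region 2 had a mean of 117.5, above 52.2% of promoter regions. Much of this gap goes with width. The mean ratio of region 1 to region 2 over the 10 libraries was 1.95 in pseudo-counts and 1.19 per kb. In Het litter 5 region 1 was not above region 2 per kb (28.0 against 28.1). Per kb, the WT animals had 35.9 ± 4.65 pseudo-counts in region 1 and the Het animals 35.5 ± 7.12, and in region 2 they had 30.1 ± 4.22 and 30.3 ± 3.54 (SD over 5 animals), against a median of 31.2 over promoter regions. Region 1 was wider than 79% of promoter regions and region 2 wider than 61.5%, with a median width of 3058 bp.

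The question of the design is whether H3K27ac differs between Het and WT littermates. At Bdnf no difference larger than the spread between animals was found in either region. In region 1 the WT animals averaged 229.0 ± 29.7 pseudo-counts and the Het animals 226.4 ± 45.4, and in region 2 they averaged 117.0 ± 16.4 and 118.0 ± 13.8 (SD over 5 animals). Neither of the 2 regions passed the limma test at an adjusted p under 0.05, neither had an unadjusted p under 0.05, and limma-voom on the recovered reads called 0 as well. Of all regions tested, 0.00196% were called in this comparison by limma, and 2.1% had an unadjusted p under 0.05. With the litter as a block neither Bdnf region passed either (limma adjusted p 1 for each). In that fit 0.00589% of all regions were called, and 4.63% had an unadjusted p under 0.05.

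In region 1, at the upstream end of the gene, the WT animals of litters 1 to 5 had 219.5, 242.7, 233.0, 264.9 and 185.0 pseudo-counts. Their Het littermates had 201.3, 215.8, 297.5, 238.9 and 178.4. The Het animal of litter 3 was the highest of the 10, the 2 animals of litter 5 were the lowest, and the groups overlap from 185.0 to 264.9, the range of WT, which lies inside that of Het. Het was lower than WT in litters 1, 2, 4 and 5, with Het to WT ratios from 0.890 to 0.964, and higher in litter 3, with a ratio of 1.28. The fitted log2 difference was -0.03 (SE 0.11; Het 0.980 times WT, 95% interval 0.836 to 1.15; limma p 0.804, adjusted p 1). Without the Het animal of litter 3 the log2 difference was -0.16 (SE 0.10; limma p 0.12, adjusted p 0.892). The bounds of 0.836 and 1.15 hold for the fit to all animals, which takes littermates as independent. They depend on the Het animal of litter 3, without which the estimate moved down. With the litter as a block the interval was 0.875 to 1.10.

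In region 2, inside the gene, the WT animals of litters 1 to 5 had 121.0, 103.4, 128.7, 135.1 and 96.7 pseudo-counts. Their Het littermates had 107.0, 113.1, 119.3, 141.2 and 109.3. Litter 4 held the highest animal of each genotype, the WT animal of litter 5 was the lowest, and the Het values lie inside the WT range but for the highest. Het was higher in litters 2, 4 and 5 and lower in litters 1 and 3, with ratios from 0.885 to 1.13. The fitted log2 difference was 0.02 (SE 0.11; Het 1.01 times WT, 95% interval 0.861 to 1.19; limma p 0.885, adjusted p 1). The authors' deposited table gives log2 fold changes of -0.03 for region 1 and -0.0029 for region 2, each with an FDR of 1.

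**Figure D2:**
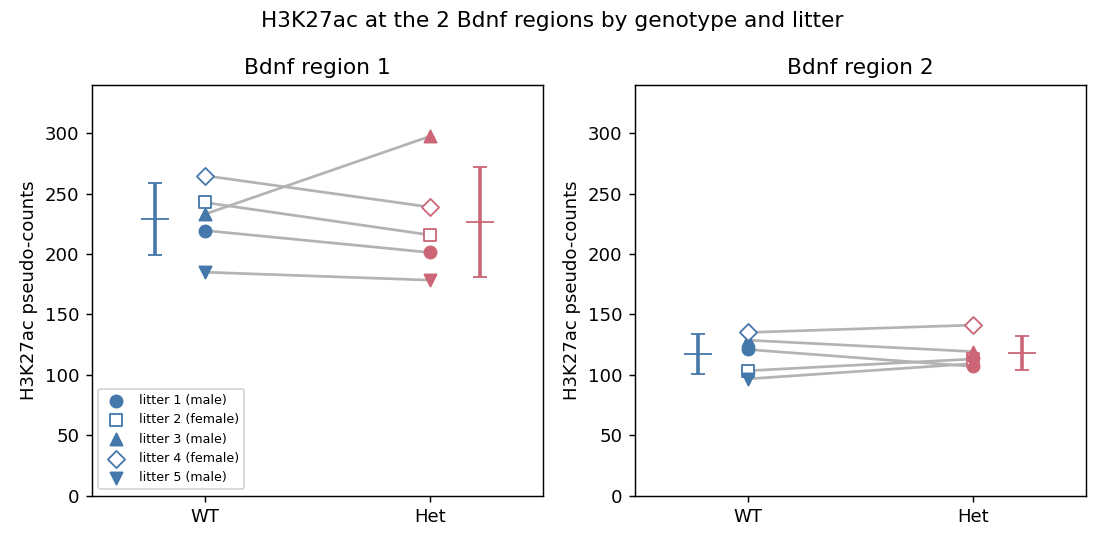
H3K27ac pseudo-counts at Bdnf region 1 (left) and Bdnf region 2 (right) in WT and Het animals; grey lines join littermates, filled symbols are male, open symbols female, and the bars beside the points are the mean ± SD of 5 animals. In region 1 the line of litter 3 rises to 297.5 while the other 4 fall, and in region 2 3 lines rise and 2 fall.

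Depth bears on these values. WT litter 5, the shallowest library, had 89 reads in region 1 and 46 in region 2, which gives counting SDs of 10.6% and 14.7%. The other libraries had 201 to 330 reads in region 1 and 89 to 171 in region 2. The coefficient of variation over the 10 libraries was 15.9% in region 1 and 12.2% in region 2. In region 1 this was above the counting SD of every library (5.51 to 10.6%). In region 2 it was above that of the 9 deeper libraries (7.65 to 10.6%) and below that of WT litter 5, though the authors' adjustment changes the spread of shallow libraries. On the log2 scale the SD of region 1 was 0.226, above that of 86.2% of the 1000 promoter regions nearest to it in mean, and the SD of region 2 was 0.173, above that of 50.5% of its 1000.

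The 2 promoter regions were also compared with each other within each library. Region 1 held 1.97 ± 0.221 times the pseudo-counts of region 2 in the WT animals and 1.92 ± 0.342 times in the Het animals (SD over 5 animals). Per kb the ratio over all 10 libraries was 1.19 ± 0.166 (SD). The ratio was highest in Het litter 3 (2.49) and WT litter 2 (2.35) and lowest in Het litter 5 (1.63) and Het litter 4 (1.69). The genotypes overlap, and the difference of their means is smaller than either SD.

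Males and females of the study differ by litter as well as by sex, so sex and litter cannot be told apart. Region 1 had 219.1 ± 43.5 pseudo-counts in males (n = 6) and 240.6 ± 20.1 in females (n = 4), and region 2 had 113.7 ± 11.5 and 123.2 ± 17.9 (SD). The male minus female log2 difference was -0.15 (SE 0.12; limma p 0.197, adjusted p 0.625) in region 1 and -0.11 (SE 0.12; limma p 0.353, adjusted p 0.759) in region 2. Neither region passed or had an unadjusted p under 0.05, with limma or limma-voom. Limma called 0.904% of all regions, and 13.2% had an unadjusted p under 0.05. Limma-voom called 576 of the 50898 regions. Both fits take littermates as independent. With the litter as a random effect the adjusted p was 0.803 in region 1 and 0.899 in region 2 by limma, and 0.0884% of all regions were called. Without Het litter 3 the difference of region 1 was -0.26 (SE 0.10; limma p 0.0121, adjusted p 0.104). Without both animals of litter 5 it was -0.03 (limma adjusted p 0.985).

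Whether the genotype difference depends on sex was tested with an interaction term. In region 1 Het minus WT was -0.16 (SE 0.18) in females and 0.06 (SE 0.15) in males on the log2 scale, with an interaction of 0.22 (SE 0.24; limma p 0.37, adjusted p 1). In region 2 it was 0.10 (SE 0.19) and -0.04 (SE 0.15), with an interaction of -0.13 (SE 0.24; limma p 0.586, adjusted p 1). Neither region passed by limma or by limma-voom, and 0% of all regions were called; 694 regions had an unadjusted p under 0.05 by limma and 659 by limma-voom, which called none. The intervals of the interaction are wide, from 0.830 to 1.63-fold in region 1 and from 0.650 to 1.28-fold in region 2.

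**Figure D3:**
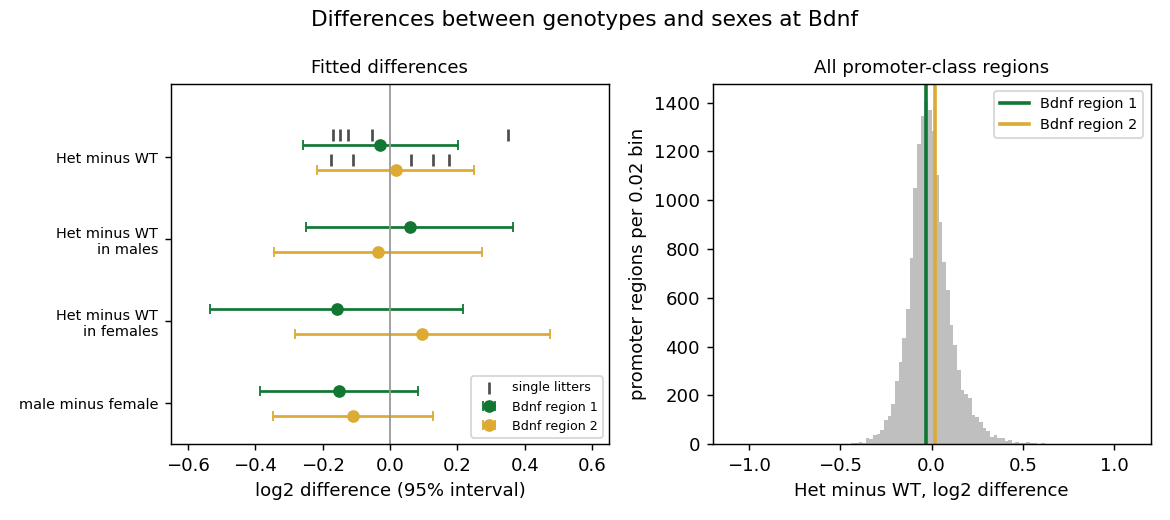
Left, fitted log2 differences of the 2 Bdnf regions (points) with 95% intervals (bars) for Het minus WT in all animals, in males and in females, and for males minus females; grey ticks are the Het minus WT log2 differences of single litters. Right, number of promoter-class regions by their Het minus WT log2 difference, with lines at -0.03 for region 1 and 0.02 for region 2; all intervals on the left include 0.

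Across the 10 libraries the 2 Bdnf regions had a Pearson r of 0.57 (permutation p = 0.0861) and a Spearman rho of 0.515 (permutation p = 0.134) on the log2 scale. Without Het litters 3 and 5, the libraries farthest from the median of region 1, r was 0.717. Both regions also moved with how strongly signal was concentrated in a library, measured as the share of its pseudo-counts that fell in the top 5% of regions by mean, to which neither Bdnf region belongs. This share was 33.2% in Het litter 3 and 33.6% in WT litter 4, which had the 2 highest values of region 1, and 28.2% in Het litter 1, 29.5% in Het litter 5 and 30.5% in WT litter 5, which had the 3 lowest. WT litter 2 went the other way, with a share of 30.1%, below that of WT litter 5, and the third highest value of region 1.

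With this share, region 1 had a Pearson r of 0.781 (permutation p = 0.00786, adjusted p = 0.0236) and a Spearman rho of 0.709 (permutation p = 0.0274, adjusted p = 0.0463), and region 2 an r of 0.688 (permutation p = 0.0294, adjusted p = 0.0441) and a rho of 0.697 (permutation p = 0.0308, adjusted p = 0.0463). All p-values are two-sided and adjusted over 3 relations; for the 2 regions with each other the adjusted p-values were 0.0861 and 0.134. Without WT litter 4 and Het litter 1, the r of the share with region 1 was 0.799 and with region 2 0.61. These p-values take the 10 libraries as independent, although littermates are not. How many of the other regions follow the share as closely was not counted, so the relation cannot be called particular to Bdnf. Within litters, the Het minus WT difference of region 1 had the direction of the difference in share in 4 of 5 litters, and that of region 2 in 2 of 5. From litter 1 to 5 the share differed by -2.18, 0.90, 1.78, -1.17 and -0.99 percentage points, and the log2 difference of region 2 was -0.18, 0.13, -0.11, 0.06 and 0.18. The relation of region 2 with the share was thus not seen in these directions. With 5 litters it cannot be told whether it holds within litters. The part of signal concentration in the spread of Bdnf between animals was not tested; after abundance-dependent loess the SD of region 1 fell from 0.226 to 0.194 on the log2 scale, and that of region 2 was 0.184 against 0.173.

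**Figure D4:**
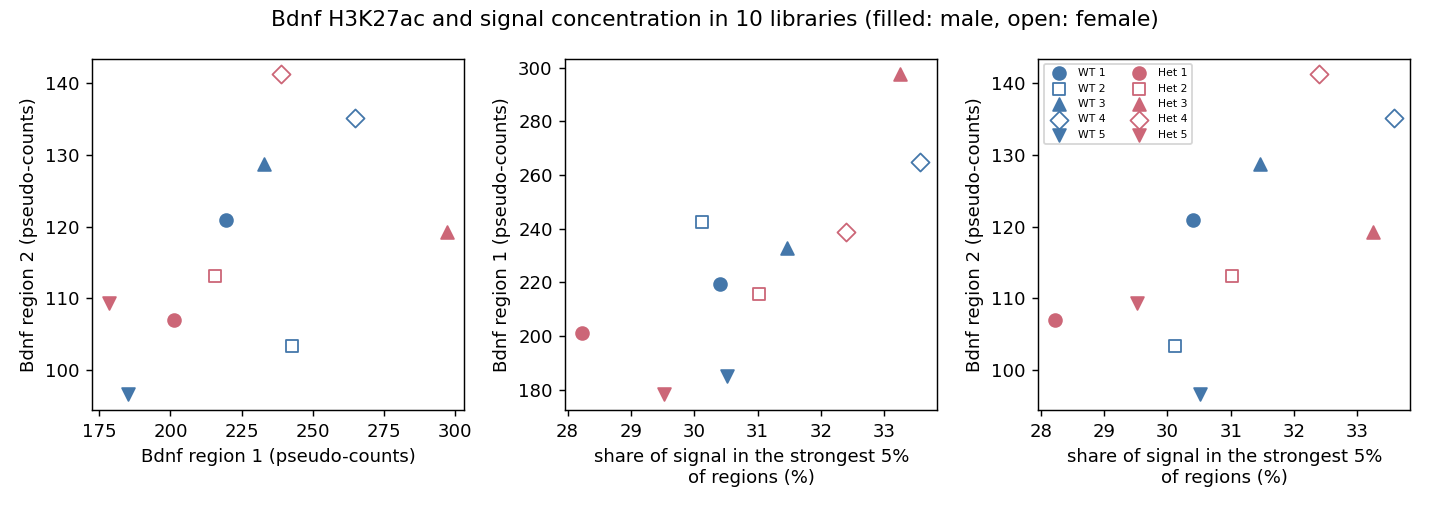
Pseudo-counts of Bdnf region 2 against region 1 (left), and of region 1 (middle) and region 2 (right) against the percent of signal that lay in the top 5% of regions, for 10 libraries (blue WT, red Het; filled male, open female). Over the 10 libraries r was 0.781 for region 1 and 0.688 for region 2, with WT litter 2 (share 30.1%, 242.7 pseudo-counts in region 1) and Het litter 3 (share 33.2%, 119.3 in region 2) among the exceptions.

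The regions whose values over the 10 libraries were most like those of region 1 lay elsewhere in the genome. The highest Pearson r on the log2 scale was 0.974 for the enhancer-class region chr2:52571230-52575973, followed by 0.964 for the promoter region chr1:55082379-55086794 and 0.962 for the enhancer-class region chr9:41888117-41896345. The first 2 had their highest value in Het litter 3 and their lowest in Het litter 5, as region 1 did. They are the extremes of the whole table, the median r over all other regions was -0.241, and 10.1% of regions had a higher r with region 1 than region 2 had.

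Outside the window the nearest rows used here are far from the gene. The enh region number that was not analysed here could lie closer, as its position is not known. The enhancer-class region upstream, chr2:109457882-109460878, lies 52695 bp from region 1 and averaged 57.6 ± 9.90 pseudo-counts in the WT and 53.2 ± 6.07 in the Het animals (SD over 5 animals; log2 difference -0.11, SE 0.15; limma adjusted p 1). The promoter region downstream, chr2:109730069-109732618, lies 194664 bp from region 2 and averaged 138.0 ± 6.00 and 128.0 ± 11.1 (log2 difference -0.11, SE 0.10; limma adjusted p 1). Neither passed the test.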

How the data were processed

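H3K27ac ChIP-seq libraries of cortex from 10 mice were analysed, with groups from the genotype labels. Bowtie2, edgeR and the genome build mm9 are named in the submitters' processing notes on the authors' steps; the sources used here name no versions and do not say how regions were called and classed. Per the file headers, the deposited signal values are pseudo-counts. Beside them, per the file headers, stand the authors' p-value, FDR, log2 fold change and mean log2 CPM of each region. The adjustment to a common library size would hide a uniform change, and it used a mean per genotype, so values of shallow libraries are drawn towards their own group.

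Limma 3.58.1 (trend, robust; R 4.3.3) was fitted to log2(value + 1) of all 50898 regions with sex and genotype as terms, with Benjamini-Hochberg adjustment over all regions and a threshold of 0.05. Fold changes are on that scale. The interaction was a coefficient of its own. Whole reads were recovered by solving the quantile adjustment backwards with 1 dispersion, 0.01503, found from the values; 99.99% of the solutions lay no more than 0.1 read from a whole number, and 9 values deposited as 0 were set to 0 reads. They served for depth and for limma-voom. Correlations used permutation tests with 100000 resamples (scipy 1.17.1). Recovery and fits were tried on simulated data. For recovery these data were made with the same adjustment that is solved backwards. For the fits they held no litter or sex differences, so likeness of littermates was not covered. The labels name littermates; the correlation of littermates' deviations from their genotype means over all regions was, for litters 1 to 5, 0.232, 0.123, 0.0796, 0.365 and 0.419.

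Every row in the window was named, and the 3 regions with the highest Pearson r with the stronger one. Members and lists were chosen with earlier results of these data known. RefSeq tables of GRCm38.p6 gave the sequences and were not joined to mm9 coordinates; other genes of the neurotrophin pathway and cell type markers were therefore not analysed here. Alternatives were the litter block, pseudocounts of 0.5 and 5, a mean of at least 20, TMM and median-of-ratios factors, abundance-dependent loess, no sex term, a threshold of 0.10, limma-voom, and leaving out each library or, chosen after seeing the data, a litter, and litter as a random effect for sex. Rows overlapping the gene span were counted as a further alternative. This setting kept both Bdnf regions and was fitted with the litter block, so it repeats the litter-block alternative.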

Additional observations from a re-analysis of the deposited data

Results flagged for a closer look

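An unusually distant library was looked for in 10 groups of Bdnf values, and 1 was found. Chance gives such a find in about 1 in 20 groups, so 1 find among 10 groups can arise by chance. The ratio of Bdnf region 1 to Bdnf region 2 was 2.35 in WT litter 2, against 1.81 to 1.96 in the other WT libraries. In that library region 1 was the second highest of the WT values (242.7 pseudo-counts) and region 2 the second lowest (103.4). Het litter 3 had a higher ratio (2.49) and was not flagged.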

How the results depend on the processing

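No Bdnf region was called in any of the 22 alternatives of the genotype comparison, the 22 of the sex comparison or the 21 of the interaction. The count stayed 0 of 2 in each. For genotype and interaction, the gene-span alternative kept both regions and repeated the litter-block fit, so it is no separate check. The replicate block of littermates gave 0 as well and left the log2 difference of Het minus WT at -0.03 (SE 0.08) in region 1 and 0.02 (SE 0.10) in region 2. The sign of these small differences was not stable. In region 2 it was -0.0044 with median-of-ratios factors, -0.0018 with limma-voom on recovered reads and -0.0232 without both animals of litter 5. Leaving out 1 library moved it from -0.0543 to 0.0692 in region 2 and from -0.1579 to 0.0424 in region 1, where leaving out WT litter 4 (0.01), Het litter 2 (0.01) or Het litter 5 (0.04) turned it. In region 2 it turned without WT litter 2 (-0.05), WT litter 5 (-0.04), Het litter 3 (-0.0014) or Het litter 4 (-0.04). The male minus female difference of region 2 was 0.065 without both animals of litter 4, -0.285 (SE 0.15; limma adjusted p 0.341) without both of litter 2, and from -0.20 to -0.03 without single libraries; in region 1 it ran from -0.26 to -0.09. In interaction fits without a female library, the single female left in its genotype was taken to have the spread of the other groups. The cause was not tested. The median over all regions moved from 0.0092 to -0.0118 at most with other scalings. Depth was lowest in region 2 of WT litter 5, with 46 reads.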
